A study of Mus musculus with 15 samples.

Results

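The antioxidant and glutathione genes were followed in 15 samples of 21EM15 cells, an immortalized mouse lens epithelial line, profiled via 3′ end RNA sequencing. A list of 39 genes was matched by symbol to the 2 deposited expression tables, and the 36 genes present in both were kept, out of 11677 genes in the culture table and 11299 in the region table. *Gpx7* and *Gstt1* are in neither table, and *Cygb* is in the region table only. The 36 genes fall into glutathione synthesis and its NADPH supply (5), glutathione transferases (6), peroxidases, peroxiredoxins and dismutases (14), the thioredoxin system with sulfoxide repair and selenoprotein P (8), and *Nfe2l2*, *Keap1* and *Nqo1* (3).

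The samples were 4 conventional 2D cultures, 4 cultures of whole 3D spheroids, 4 samples of the internal part of spheroids and 3 of their external part, both cut out by laser capture microdissection. All are labelled wild type, with no treatment named, and come from 1 cell line. Each spheroid sample pools many spheroids, and the authors set an external sample aside after a principal component analysis. The RNA of the cultures and that of the microdissected parts were extracted with different kits and the 2 tables were scaled separately, so that tests were made within a table. The study's methods describe a Petri dish for each 2D replicate and a pool of spheroids for each spheroid replicate. Neither they nor the labels say whether replicates were independent experiments, and p-values then measure only the spread between these samples. Total reads over the listed genes were 7305053 to 9362587 in 2D, 7727642 to 8364276 in 3D, 4044230 to 6086089 in the external and 4256391 to 11702504 in the internal samples.

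Among lens epithelium markers, 5 of 8 are in the tables, with a summed level of 859 to 1167 CPM in 2D, 1363 to 1683 CPM in 3D, 795 to 893 CPM in the external and 999 to 1313 CPM in the internal samples. The 5 are *Pax6*, *Six3*, *Gja1*, *Pdgfra* and *Cryab*, the last described by the paper as a major part of later lens fibers. *Foxe3*, *Cdh1* and *Cryaa* are not among the genes of either table. Of the 5, 4 had log2 fold changes above 0 in 3D and 1 below, and in the internal part 3 were above 0 and 2 below. Other marker lists moved with the groups. The 7 proliferation genes summed to 1276 to 2139 CPM in 2D against 652 to 755 CPM in 3D, and to 583 to 758 CPM in the external against 59.1 to 97.3 CPM in the internal samples. The 6 fibroblast markers in the culture table summed to 107 to 238 CPM in 2D and 521 to 769 CPM in 3D. The 5 in the region table overlapped, with 260 to 614 CPM in the external and 510 to 575 CPM in the internal samples. Of 11 lens fiber markers, *Prox1* and *Maf* are in both tables and *Bfsp1* is in the region table only, while the other 8, *Mip* and the crystallins on that list among them, are in neither. They summed to 46.7 to 87.1 CPM in 2D, 145 to 223 CPM in 3D, 144 to 184 CPM outside and 393 to 440 CPM inside. The 7 hypoxia and glycolysis genes in the tables summed to 1094 to 2453 CPM in 2D, 1195 to 1517 CPM in 3D, 1532 to 1984 CPM outside and 821 to 1364 CPM inside. Their log2 fold changes ran from -0.66 to 1.01 in 3D and from -1.23 to 1.19 in the internal part. Of 6 leukocyte and endothelial markers only *Cd68* is listed, at no more than 6.31 CPM in any sample. The part of these differences in the results below was not tested, and in bulk samples fewer cells of a type and less RNA per cell cannot be told apart.

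The lens is kept transparent in part by a large store of reduced glutathione, and oxidation of its proteins and lipids is a known feature of cataract. Glutathione is made by glutamate-cysteine ligase and glutathione synthase, is spent by glutathione peroxidases and transferases, and is restored by glutathione reductase with NADPH from the pentose phosphate pathway. The thioredoxin system runs in parallel and recharges the peroxiredoxins. Many of these genes are targets of NRF2, the protein of *Nfe2l2*, which KEAP1 holds in check and which binds the antioxidant response element in their promoters.

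The core letters of that element, TGACNNNGC on either strand, were searched in the promoter windows of RefSeq (GRCm38.p6, 250 bases before to 50 after each start). Windows were found for 30 of the 36 genes. The letters were present in 8 of these 30 genes (26.7%), against 14.0% of 27025 genes in the RefSeq windows, and in 6 of the 9 genes with a window that are listed here as NRF2 targets. The match to *Prdx1* overlaps the letters TGACTCA of an AP-1 site. The stretches printed are those of *Gclm*, *Txnrd1* and *Mgst1*, NRF2 targets that moved in both comparisons, of *Prdx1* for that overlap and of *Nfe2l2*, the regulator itself, with the matched letters in capitals, each read 5′ to 3′ on the strand of its gene. They lie at chr3:122245407-122245447 (+) for *Gclm*, chr10:82859098-82859138 (+) for *Txnrd1*, chr6:138140455-138140495 (+) for *Mgst1*, chr4:116685450-116685490 (+) for *Prdx1* and chr2:75704879-75704913 (-) for *Nfe2l2*.
Gclm: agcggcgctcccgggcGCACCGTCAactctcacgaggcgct
Txnrd1: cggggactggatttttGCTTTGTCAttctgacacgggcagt
Mgst1: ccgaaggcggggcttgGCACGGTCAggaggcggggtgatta
Prdx1: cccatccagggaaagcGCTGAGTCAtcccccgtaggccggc
Nfe2l2: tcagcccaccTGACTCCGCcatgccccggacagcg
A match describes the sequence and is not a measured site. The other matches were in *Srxn1*, *Sod1* and *G6pdx*. As the values below show, genes with the letters include *Mgst1*, which rose in both comparisons, and *Gclm* and *Txnrd1*, which fell in both.

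In 3D against 2D, *Mgst1*, *Txnip*, *Selenop*, *Sod3*, *Gstm1* and *Prdx5* rose and *Gclm*, *Gclc*, *Txnrd1* and *Gsto1* fell, while 26 of the 36 genes did not pass the test. A gene is said to rise or fall where limma's two-sided test, adjusted by the Benjamini-Hochberg method over the whole table, gave an adjusted p under 0.05. The 6 that rose stand against 9.74% of all genes of the table and the 4 that fell against 9.25%. Over 2-fold, 4 genes were higher, as were 5.52% of all genes, and 0 were lower, as were 2.86% of all genes, the lowest log2 fold change among members being -0.87 (*Mgst3*). The groups did not overlap for 9 of the 36, against 24.0% of all genes. The median log2 fold change of the 36 genes was 0.02 and that of all genes -0.03.

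Between the internal and external parts, *Mgst1*, *Txnip*, *Selenop*, *Gstm1* and *Nfe2l2* rose towards the inside, and *Gsto1*, *Txn2*, *Prdx6*, *Srxn1*, *Txnrd1*, *Gclm* and *Prdx2* fell. The 5 that rose stand against 9.58% of the table and the 7 that fell against 12.1%, and 24 did not pass. Over 2-fold, 3 were higher, as were 4.77% of all genes, and 1 was lower, as were 5.65% of all genes. The groups did not overlap for 13 of the 36, against 29.0% of all genes. The median log2 fold change of the 36 genes was -0.18 and that of all genes 0.04.

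Across both comparisons, 4 of the 36 genes rose in each (*Mgst1*, *Txnip*, *Selenop* and *Gstm1*) and 3 fell in each (*Gclm*, *Txnrd1* and *Gsto1*). Of the 11041 genes in both tables, 3.62% rose in each and 4.58% fell in each. Without 3D replicate 3 the 3D calls of *Gstm1*, *Gsto1* and *Txnrd1* were lost (limma, adjusted p = 0.123, 0.108 and 0.0525). No member rose in one comparison and fell in the other, which few genes did (0.399% rose in 3D and fell inside, and 0.0906% the reverse). The comparisons share no sample.

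**Figure D1:**
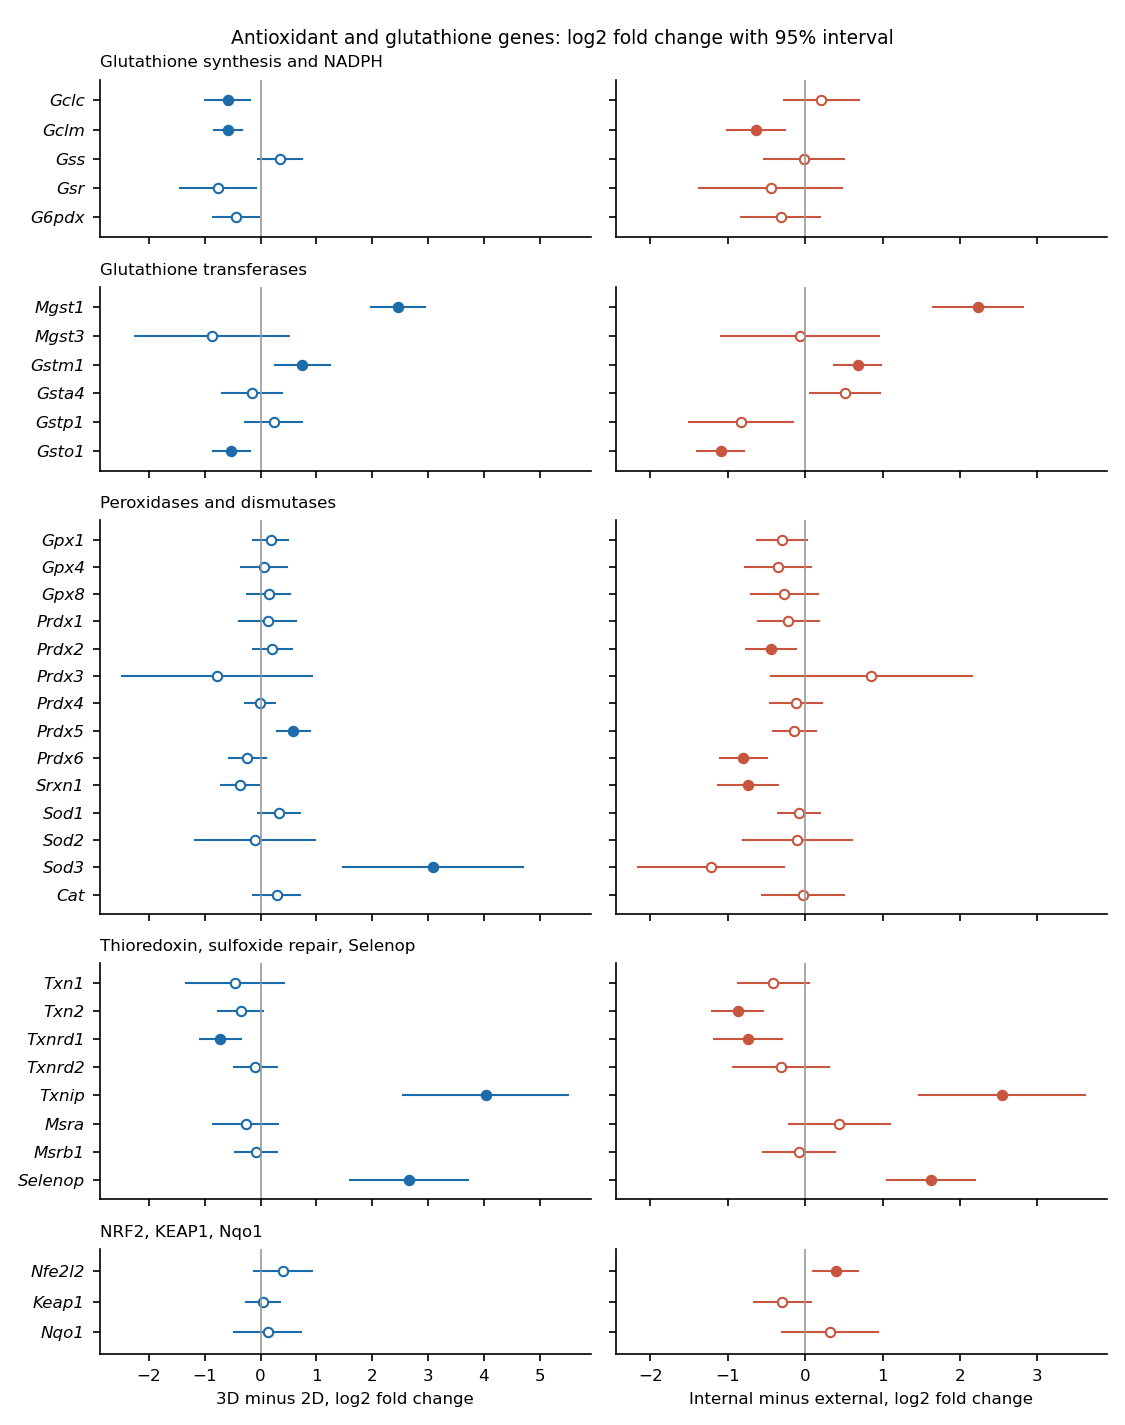
Log2 fold change with its 95% interval for the 36 genes, by group of function, for 3D minus 2D (left) and internal minus external (right), with a separate horizontal scale for each column. Filled points have an adjusted p under 0.05; most points lie near 0, with *Mgst1*, *Txnip* and *Selenop* far to the right in both columns and *Sod3* to the right in the left column only.

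In glutathione synthesis, 2 of 5 genes fell in 3D (*Gclm* and *Gclc*), against 9.25% of all genes, and 1 fell in the internal part (*Gclm*), against 12.1%. *Gclm* encodes the modifier subunit of glutamate-cysteine ligase (chromosome 3, 122245557 to 122270732, plus strand, GRCm38). Its level in 2D replicates 1 to 4 was 6.87, 6.79, 7.02 and 6.98 log2 CPM, and in 3D it was 6.30, 6.28, 6.45 and 6.28. The 3D samples were below the 2D samples with no overlap, a log2 fold change of -0.58 ± 0.12 (SE, limma, adjusted p = 0.00783, n = 4 per group) or 1.50-fold. In the external samples *Gclm* stood at 6.47, 6.47 and 6.44 log2 CPM and in the internal ones at 5.81, 6.05, 5.70 and 5.72. Here too the groups were apart, with a log2 fold change of -0.64 ± 0.18 (SE, limma, adjusted p = 0.0129).

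*Gclc*, the catalytic subunit of the same ligase, had 5.43, 5.45, 5.54 and 6.06 log2 CPM in 2D and 5.06, 5.26, 5.0 and 4.79 in 3D. The groups did not overlap and the log2 fold change was -0.59 ± 0.18 (SE, limma, adjusted p = 0.044). The call was lost without 2D replicate 3 or 4 or without 3D replicate 1, 3 or 4, with adjusted p between 0.0775 and 0.123, and with no variance trend (0.0657), median centring (0.0563) or quantile normalization (0.0525). Between the regions its log2 fold change was 0.21 (limma, adjusted p = 0.568), with overlapping samples. Both subunits were lower in 3D, and the modifier subunit alone passed the test between the regions. The difference between the subunits was not tested.

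The other genes of this group did not pass in either comparison. *Gss*, glutathione synthase, had log2 fold changes of 0.34 in 3D and -0.01 in the internal part. *G6pdx*, which opens the pentose phosphate pathway, had -0.45 and -0.31. *Gsr*, glutathione reductase, had -0.77 in 3D (limma, adjusted p = 0.108). Without 2D replicate 2, where *Gsr* was at 4.08 log2 CPM while replicates 1, 3 and 4 had 4.82 to 5.36, the value was -1.02 (adjusted p = 0.0211), and without 3D replicate 2 it was -0.59 (adjusted p = 0.233).

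The glutathione transferases did not move together. In each comparison 2 of the 6 rose and 1 fell, where 9.74% of all genes rose and 9.25% fell in 3D and 9.58% and 12.1% did in the internal part. *Mgst1* encodes a membrane-bound transferase that also reduces lipid hydroperoxides (chromosome 6, 138140316 to 138156755, plus strand). It was at 3.56, 3.48, 3.45 and 2.97 log2 CPM in 2D, or 73 to 110 reads, and at 5.61, 5.45, 6.23 and 6.02 in 3D, or 352 to 578 reads. Each 3D sample was above each 2D sample. This gave a log2 fold change of 2.46 ± 0.22 (SE, limma, adjusted p = 0.000318), a 5.52-fold difference with a 95% interval of 1.98 to 2.95 on the log2 scale.

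Within spheroids *Mgst1* was at 5.03, 4.09 and 3.35 log2 CPM in external replicates 1 to 3 and at 6.39, 6.52, 6.17 and 6.46 in the internal samples. The internal samples lay close together and above the external ones, which spread over more than 1 log2 unit. The log2 fold change was 2.23 ± 0.28 (SE, limma, adjusted p = 3.63e-06, n = 4 and 3), 4.69-fold. It passed the test and stayed over 2-fold in all alternatives run in both comparisons.

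*Gsto1*, an omega class transferase that reduces dehydroascorbate (chromosome 19, 47854970 to 47864790, plus strand), went the other way. In the external samples it was at 7.88, 8.19 and 8.02 log2 CPM and in the internal samples at 6.92, 6.92, 7.05 and 6.90. The internal samples agreed within 0.2 log2 units and all lay below the external ones, with a log2 fold change of -1.09 ± 0.15 (SE, limma, adjusted p = 7.69e-06), 2.13-fold. With scaling to total reads (-0.98) or quantile normalization (-0.96) it passed the test but was not over 2-fold.

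In 2D *Gsto1* had 8.35, 8.54, 8.73 and 8.25 log2 CPM, and in 3D 7.71, 8.14, 7.78 and 8.15. The 3D samples were lower without overlap, by a log2 fold change of -0.52 ± 0.15 (SE, limma, adjusted p = 0.0376). This call was lost without 2D replicate 2 or 3 or 3D replicate 1, 3 or 4, with adjusted p from 0.0525 to 0.108, and with no variance trend (0.0749) or median centring (0.0563).

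*Gstm1*, a mu class transferase of the cytosol, was at 8.62, 8.86 and 8.98 log2 CPM in the external and 9.36, 9.87, 9.34 and 9.43 in the internal samples. The groups were apart, with a log2 fold change of 0.68 ± 0.15 (SE, limma, adjusted p = 0.0014), and with no variance trend the adjusted p was 0.0659. In 3D against 2D its log2 fold change was 0.74 ± 0.22 (SE, limma, adjusted p = 0.0419), the groups overlapped, and the call held only without 2D replicate 2 or 3D replicate 2 among the 8 fits that each leave out a sample; in the other 6, adjusted p was 0.0545 to 0.123, and with no variance trend it was 0.0789. Of the 50-nt stretches at the 3′ ends of its transcripts, 23.0% also occur in *Gstm3* or in pseudogenes, and since only uniquely mapped reads were counted its level is uncertain.

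*Gstp1*, *Gsta4* and *Mgst3* did not pass the test in either comparison. The pi class gene *Gstp1* had 4.94, 5.54 and 5.75 log2 CPM in the external and 4.67, 3.49, 5.20 and 4.98 in the internal samples. These values overlapped, with a log2 fold change of -0.83 (limma, adjusted p = 0.0751). It passed without external replicate 1 (-1.06, adjusted p = 0.0499) or internal replicate 3 (-1.03, adjusted p = 0.0312), and was -0.46 (adjusted p = 0.263) without internal replicate 2. It shares 53.0% of its 3′ stretches with *Gstp2* and a pseudogene. *Gsta4*, which conjugates the lipid peroxidation product 4-hydroxynonenal, had a log2 fold change of 0.52 in the internal part (limma, adjusted p = 0.0951) and -0.16 in 3D, and passed between the regions with scaling to total reads (0.63, adjusted p = 0.0418).

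**Figure D2:**
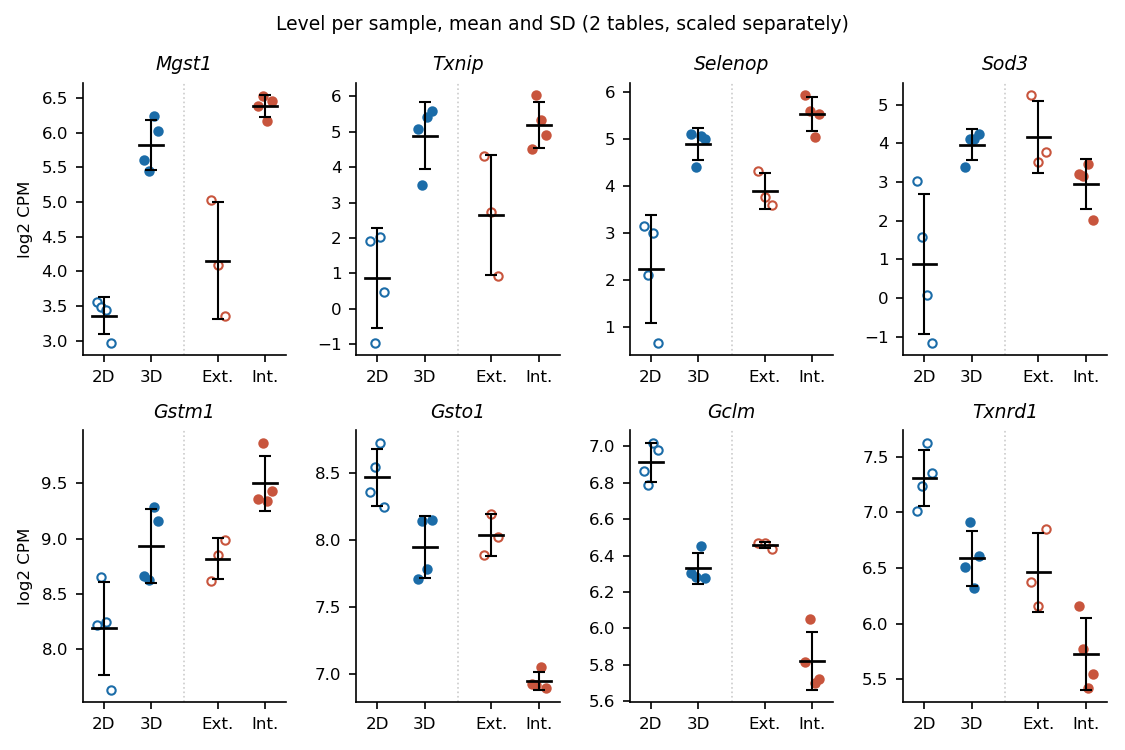
Level of 8 genes in each sample in log2 CPM, as points, with the mean and SD of each group in black. The 2D, 3D, external (Ext.) and internal (Int.) samples are shown, the dotted line separates the 2 tables that were scaled separately, and the upper row holds the genes with the largest differences (*Mgst1*, *Txnip*, *Selenop*, *Sod3*).

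Of the 14 peroxidases, peroxiredoxins and dismutases, *Sod3* and *Prdx5* rose in 3D, where 9.74% of all genes rose, and *Prdx6*, *Srxn1* and *Prdx2* fell in the internal part, where 12.1% fell. Log2 fold changes were below 0 for 13 of the 14 genes in the internal part, against 47.1% of all genes, and for 5 of the 14 in 3D, against 52.2% of all genes. The 13 became 10 with scaling to total reads and 11 with quantile normalization, and the 5 became 3 without 2D replicate 3 and 7 without 2D replicate 2. In the internal part only *Prdx3* was above 0 (0.86, limma, adjusted p = 0.362).

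*Sod3* encodes the secreted superoxide dismutase (chromosome 5, 52363791 to 52371418, plus strand). It had 3.02, 1.57, 0.08 and -1.16 log2 CPM in 2D, which is 75, 20, 7 and 2 reads, and 3.39, 4.12, 4.12 and 4.24 log2 CPM in 3D, which is 80, 139, 132 and 151 reads. The 2D samples spread widely, down to a level under the counting floor of 3 reads, while the 3D samples were similar, and the highest 2D sample was just below the lowest 3D sample. The log2 fold change was 3.09 ± 0.73 (SE, limma, adjusted p = 0.0164), 8.51-fold, with a 95% interval of 1.47 to 4.70 on the log2 scale. It was 3.80 without 2D replicate 1 and 2.41 without 2D replicate 4. The call was lost without 3D replicate 3 (adjusted p = 0.0514) or 3D replicate 4 (adjusted p = 0.0525).

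The regions gave the reverse order for *Sod3*, with 5.24, 3.51 and 3.77 log2 CPM outside and 3.22, 3.15, 3.47 and 2.01 inside. The groups did not overlap, but the gap between them was small. A log2 fold change of -1.22 ± 0.45 (SE, limma) did not pass the test (adjusted p = 0.0587), and it moved with single samples. The value was -0.68 (adjusted p = 0.369) without external replicate 1 and -0.90 (adjusted p = 0.155) without internal replicate 4, and it passed without external replicate 2 (-1.55, adjusted p = 0.0472) or internal replicate 3 (-1.39, adjusted p = 0.0444), and also with a robust prior (adjusted p = 0.0494), quantile normalization (-1.28, adjusted p = 0.0423) or limma's voom (-1.56, adjusted p = 0.0194). *Sod1*, the dismutase of the cytosol, did not pass in either comparison (0.33 and -0.08; 0.46 with adjusted p = 0.0491 by limma without 2D replicate 2), nor did *Sod2*, that of mitochondria (-0.10 in each).

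*Prdx6*, a 1-cysteine peroxiredoxin that also acts on phospholipid hydroperoxides (chromosome 1, 161240112 to 161251219, minus strand), was at 8.43, 8.64 and 8.81 log2 CPM in the external and at 7.95, 7.82, 7.56 and 7.98 in the internal samples. All 4 internal samples were below the 3 external ones. The log2 fold change was -0.80 ± 0.15 (SE, limma, adjusted p = 0.0003), 1.74-fold. In 3D against 2D it was -0.24 (limma, adjusted p = 0.288), with overlapping samples.

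*Srxn1*, sulfiredoxin, repairs overoxidized peroxiredoxins. Its level was 6.21, 6.50 and 6.69 log2 CPM outside and 5.86, 5.59, 5.73 and 5.74 inside. The groups were apart, by a log2 fold change of -0.74 ± 0.19 (SE, limma, adjusted p = 0.00601), while in 3D the value was -0.37 (adjusted p = 0.119). *Prdx2*, a peroxiredoxin of the cytosol, fell by 0.44 on the log2 scale in the internal part (limma, adjusted p = 0.0494). Its groups overlapped, and the call was lost in 5 of the 7 fits that leave out a sample, without external replicate 2 or 3 or internal replicate 2, 3 or 4 (adjusted p from 0.0749 to 0.222), and in other fits such as that with no variance trend (0.2) or with quantile normalization (0.258).

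*Prdx5*, a peroxiredoxin of mitochondria, peroxisomes and the cytosol, was the only peroxiredoxin that rose in 3D. It had 7.18, 7.49, 7.49 and 7.11 log2 CPM in 2D and 7.88, 8.09, 7.79 and 7.85 in 3D. The 3D samples were above the 2D samples with a log2 fold change of 0.59 ± 0.13 (SE, limma, adjusted p = 0.014), and in the internal part the value was -0.14 (adjusted p = 0.516).

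The glutathione peroxidases *Gpx1*, *Gpx4* and *Gpx8*, catalase (*Cat*) and the peroxiredoxins *Prdx1* and *Prdx4* did not pass in either comparison. Their log2 fold changes were 0.18, 0.06, 0.15, 0.29, 0.13 and -0.01 in 3D and -0.30, -0.35, -0.27, -0.03, -0.21 and -0.11 in the internal part, in that order. *Gpx4*, which reduces lipid hydroperoxides in membranes, had -0.63 (limma, adjusted p = 0.0246) without external replicate 1 and -0.08 (adjusted p = 0.839) without external replicate 3. Its 3′ stretches are shared with pseudogenes for 65.1%, so that its level is uncertain, and the shares for *Prdx1*, *Sod1*, *Sod2* and *Gclm* were 25.0%, 18.3%, 16.8% and 12.3%.

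*Cygb*, cytoglobin, is a haem protein that binds oxygen and was measured in the region table only. It had 0 reads in the 3 external samples, where 3 reads correspond to 0.494 to 0.802 CPM, and 70, 12, 30 and 119 reads in the internal samples. The internal levels were 3.43, 0.76, 2.84 and 3.34 log2 CPM. Each internal sample was above 3 reads. The gene passed the filter on low values through its internal samples alone, and no fold change or test is given because the external group has no reads.

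In the thioredoxin group 2 of 8 genes rose and 1 fell in 3D, where 9.74% of all genes rose and 9.25% fell, and 2 rose and 2 fell in the internal part, where 9.58% and 12.1% did. The genes that rose were *Txnip* and *Selenop* both times. *Txnip* encodes a protein that binds and inhibits thioredoxin and limits glucose uptake (chromosome 3, 96557957 to 96561883, plus strand). In 2D it had 1.93, -0.96, 2.04 and 0.47 log2 CPM, or 34, 2, 33 and 11 reads, and in 3D 5.08, 3.50, 5.43 and 5.58 log2 CPM, or 263, 90, 329 and 383 reads. Each 3D sample was above each 2D sample, and replicate 2 was the lowest of both groups. The difference amounted to a log2 fold change of 4.03 ± 0.67 (SE, limma, adjusted p = 0.00355), 16.3-fold, the highest among the 36 genes. Without 2D replicate 2 it was 3.42.

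Within spheroids *Txnip* was at 4.31, 2.73 and 0.93 log2 CPM in the external samples and 4.52, 6.03, 5.33 and 4.92 in the internal samples. The lowest internal sample was just above the highest external one, and external replicate 3 rested on 6 reads. The log2 fold change was 2.54 ± 0.52 (SE, limma, adjusted p = 0.000826), 5.83-fold. It was 3.37 without external replicate 1 and 1.68 without external replicate 3. In a fit with no variance trend the adjusted p was 0.0675.

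*Selenop* encodes selenoprotein P, a secreted carrier of selenium (chromosome 15, 3268547 to 3280508, plus strand). It had 3.16, 2.12, 2.99 and 0.67 log2 CPM in 2D and 5.11, 4.40, 5.05 and 5.0 in 3D. The groups were more than 1 log2 unit apart at their nearest samples, and the log2 fold change was 2.66 ± 0.48 (SE, limma, adjusted p = 0.00518), 6.30-fold. In the external samples *Selenop* was at 4.31, 3.76 and 3.59 log2 CPM and in the internal samples at 5.92, 5.58, 5.05 and 5.53. Again the groups were apart, with a log2 fold change of 1.63 ± 0.27 (SE, limma, adjusted p = 0.000116), 3.09-fold.

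No enzyme of the thioredoxin cycle rose. *Txnrd1*, thioredoxin reductase of the cytosol, was at 7.02, 7.24, 7.63 and 7.36 log2 CPM in 2D and 6.51, 6.91, 6.32 and 6.61 in 3D. It fell without overlap, with a log2 fold change of -0.72 ± 0.17 (SE, limma, adjusted p = 0.0153), and without 3D replicate 3 the adjusted p was 0.0525. In the external samples it had 6.37, 6.16 and 6.85 log2 CPM and in the internal ones 6.16, 5.77, 5.42 and 5.55. The highest internal and lowest external values were nearly equal, the log2 fold change was -0.74 ± 0.21 (SE, limma, adjusted p = 0.015), and without external replicate 3 it was -0.54 (adjusted p = 0.123). With no variance trend its adjusted p was 0.1.

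*Txn2*, thioredoxin of mitochondria (chromosome 15, 77915047 to 77929006, minus strand), had 7.91, 8.29 and 7.91 log2 CPM in the external and 7.27, 7.11, 6.87 and 7.41 in the internal samples. The groups did not overlap and the log2 fold change was -0.87 ± 0.16 (SE, limma, adjusted p = 0.0003), 1.83-fold, while 3D against 2D gave -0.36 (adjusted p = 0.198). *Txn1*, thioredoxin of the cytosol, had log2 fold changes of -0.45 (adjusted p = 0.456) and -0.41 (adjusted p = 0.207). In 3D it passed without 2D replicate 2 (-0.93, adjusted p = 0.00881) and was -0.20 (adjusted p = 0.757) without 2D replicate 1. In the regions it passed without external replicate 3 (-0.67, adjusted p = 0.0451) and was -0.03 (adjusted p = 0.932) without external replicate 1. *Txnrd2*, the mitochondrial reductase, and the methionine sulfoxide reductases *Msra* and *Msrb1* did not pass in either comparison, with log2 fold changes of -0.10, -0.27 and -0.08 in 3D and -0.31, 0.44 and -0.08 in the internal part.

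*Nfe2l2* itself was at 7.52, 7.47 and 7.58 log2 CPM in the external and 8.09, 7.88, 7.88 and 7.82 in the internal samples. The internal samples were higher without overlap, with a log2 fold change of 0.39 ± 0.14 (SE, limma, adjusted p = 0.0451). This call was lost in each of the 7 fits that leave out a sample, with adjusted p from 0.0533 to 0.136, and with no variance trend (0.135), median centring (0.0605) or voom (0.0566). In 3D against 2D the log2 fold change was 0.41 (limma, adjusted p = 0.252), with 0.63 without 2D replicate 1 (adjusted p = 0.0399) and 0.23 without 2D replicate 2 (adjusted p = 0.451). *Keap1* (0.04 and -0.29) and *Nqo1* (0.13 and 0.32), a quinone reductase often read as a marker of NRF2 activity, did not pass in either comparison.

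Of the members, 12 are on a list of NRF2 targets, and in each comparison 2 of them rose (*Mgst1* and *Gstm1*) and 3 fell. Of all genes, 9.74% rose and 9.25% fell in 3D, and 9.58% rose and 12.1% fell in the internal part. Those that fell were *Gclc*, *Gclm* and *Txnrd1* in 3D, and *Gclm*, *Txnrd1* and *Srxn1* in the internal part. The median log2 fold change of these 12 was -0.41 in 3D and -0.26 in the internal part. In a further list of 18 NRF2 targets 1 gene changed in 3D, where the heavy chain of ferritin, *Fth1*, had a log2 fold change of 0.69 (limma, adjusted p = 0.0449). The median log2 fold change of these 18 in 3D was 0.34, with 13 of them above 0. In the internal part 2 of these 18 rose and 6 fell, with a median of -0.14. Over all 30 targets the median was 0.10 in 3D and -0.19 in the internal part.

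The 6 that fell were *Hmox1*, *Slc7a11*, *Pgd*, *Taldo1*, *Blvrb* and *Ugdh*. *Slc7a11*, the cystine carrier that feeds glutathione synthesis, had a log2 fold change of -1.03 (limma, adjusted p = 0.0118), with overlapping groups. *Pgd* and *Taldo1*, of the pentose phosphate pathway, had -0.57 and -0.72, and *Hmox1*, heme oxygenase 1, had -0.56 with overlapping groups. The 2 that rose were *Aox1*, an aldehyde oxidase, with 1.23 (adjusted p = 0.00607), and the epoxide hydrolase *Ephx1* with 0.50. Over all 30 targets, 13 changed in the internal part (against 21.7% of all genes) and 6 in 3D (against 19.0%).

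**Figure D3:**
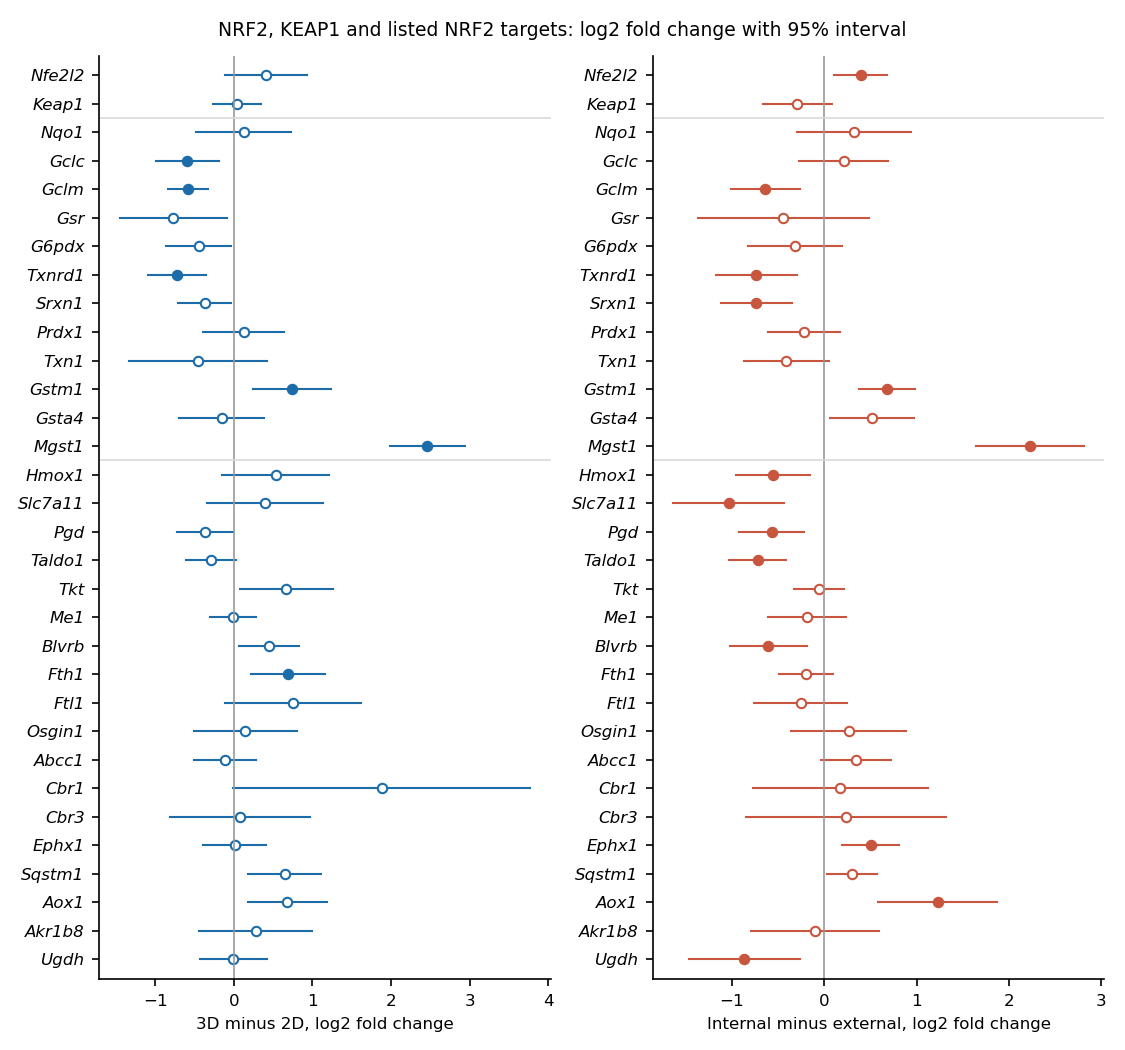
Log2 fold change with its 95% interval for *Nfe2l2* and *Keap1* (top), 12 listed NRF2 targets among the members (middle) and 18 further targets (bottom), for 3D minus 2D and internal minus external. Filled points have an adjusted p under 0.05, and they lie on both sides of 0 in each comparison.

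Other genes around these pathways were taken from 7 lists, with 81 genes in the culture table and 79 in the region table. In 3D, 8 rose and 4 fell, which is 14.8% against 19.0% of all genes, and in the internal part 4 rose and 14 fell, 22.8% against 21.7%. Among 11 genes of glutathione supply and breakdown, 5 fell in the internal part, against 12.1% of all genes, and 1 in 3D (*Lap3*, log2 fold change -0.43), against 9.25%. They include *Slc1a5*, a glutamine carrier, with a log2 fold change of -1.94 ± 0.24 (SE, limma, adjusted p = 2.12e-06), and *Cth*, which makes cysteine from cystathionine, with -1.86 ± 0.39 (adjusted p = 0.00117). *Slc3a2*, the heavy chain that partners *Slc7a11*, had -0.67, and *Chac1*, which breaks down glutathione, had -0.67. *Slc7a11* itself, given above among the NRF2 targets, is on this list too, so its fall is counted in both.

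Among 12 thioredoxin fold and glutaredoxin genes, 3 fell in the internal part, against 12.1% of all genes, including the mitochondrial glutaredoxin *Glrx5* with a log2 fold change of -1.19 ± 0.17 (SE, limma, adjusted p = 1.72e-05). *Pgls*, of the pentose phosphate pathway, had -1.23 ± 0.14 (SE, limma, adjusted p = 1.22e-06). *Aldh3a1*, an aldehyde dehydrogenase abundant in the cornea, rose in both comparisons, by 3.89 ± 0.40 in 3D (SE, limma, adjusted p = 0.000597) and 2.64 ± 0.18 in the internal part (adjusted p = 5.43e-10) on the log2 scale. Also over 2-fold higher in 3D were *Selenom*, a selenoprotein of the endoplasmic reticulum, with 1.32 ± 0.26 (adjusted p = 0.00716), *Nfe2l1*, a relative of *Nfe2l2*, with 1.20 ± 0.16 (adjusted p = 0.00146), and the transferase *Gstm5* with 1.01 ± 0.21 (adjusted p = 0.0106). Of 15 selenoproteins and genes of selenium use other than members, 3 rose and 2 fell in 3D (33.3%, against 19.0% of all genes). Between the regions 0 of the 15 changed by limma, against 21.7% of all genes, and 2 had an unadjusted p under 0.05, as had 3793 of the 11299 genes.

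Some members were low in both culture samples numbered 2. In the 2D and 3D samples numbered 2, 7 of the 36 genes (19.4%) were at their lowest in both groups, close to the 16.2% of all genes, namely *Gsr*, *Mgst3*, *Prdx3*, *Sod2*, *Txn1*, *Txnip* and *Nfe2l2*. By more than 1 log2 unit below the next sample in both groups there were 3 (8.33%, against 1.87% of all genes), namely *Prdx3*, *Sod2* and *Txnip*. *Prdx3*, the peroxiredoxin of mitochondria, had 5.97, 2.20, 4.42 and 4.69 log2 CPM in 2D and 3.92, 1.68, 4.37 and 4.17 in 3D. Replicate 2 rested on 32 and 24 reads there, against 117 to 596 in the other cultures. *Sod2* had 6.47, 4.24, 6.30 and 6.42 log2 CPM in 2D and 6.12, 4.78, 6.03 and 6.07 in 3D, and *Txn1* had 10.19, 8.01, 9.59 and 9.94 in 2D and 9.14, 8.51, 9.12 and 9.14 in 3D. In *Prdx3*, *Sod2* and *Txn1* the samples numbered 2 stood further from their own group than the groups stood from each other.

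Without both samples numbered 2, an alternative chosen after seeing the data, 13 members changed in place of 10. Of these 6 rose and 7 fell, and 6 were over 2-fold. *Txn1* then had a log2 fold change of -0.77 (limma, adjusted p = 0.0136), *Mgst3*, a microsomal transferase, -1.28 (adjusted p = 0.0364) and *Gsr* -0.84 (adjusted p = 0.0364). *Mgst3* was at 4.06, 0.68, 3.35 and 2.67 log2 CPM in 2D, where replicate 2 had 10 reads, and at 2.02, 1.06, 2.09 and 2.11 in 3D. With all samples its log2 fold change was -0.87 (limma, adjusted p = 0.357), without 2D replicate 2 alone it was -1.54 (adjusted p = 0.0203) and without 2D replicate 1 it was -0.41 (adjusted p = 0.665), and in the internal part it was -0.07.

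**Figure D4:**
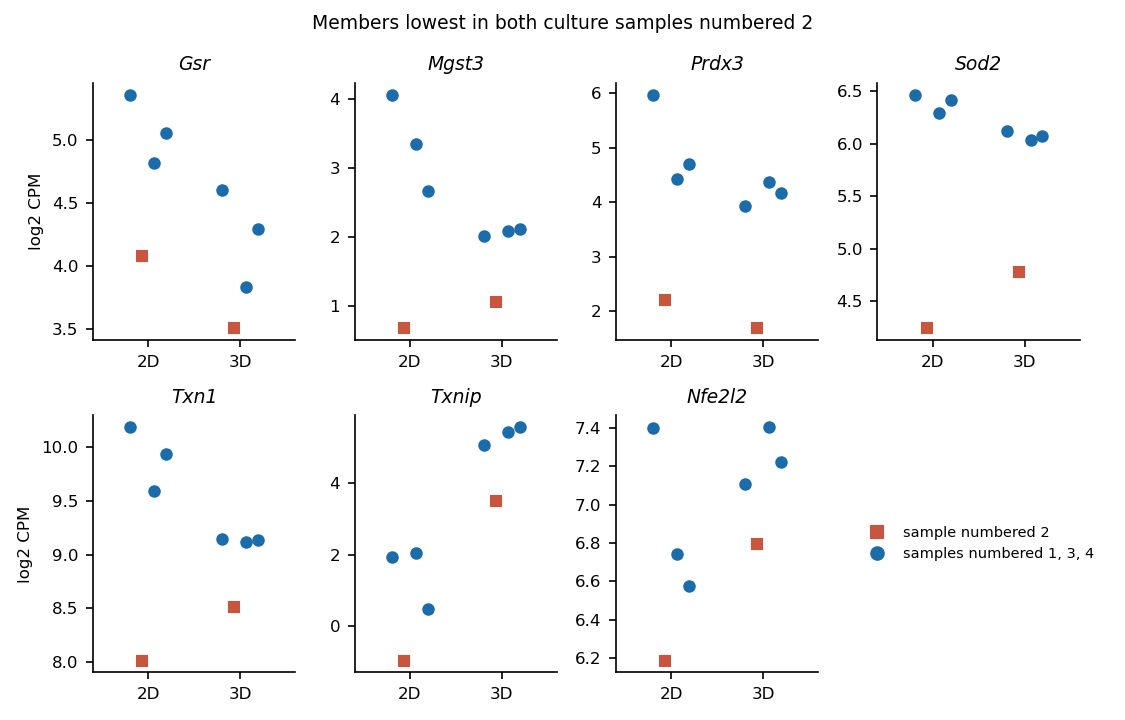
Level in log2 CPM of the 7 genes that were lowest in both culture samples numbered 2 (squares), beside the samples numbered 1, 3 and 4 (circles), in 2D and 3D. The squares lie below the circles of their group in each panel, by the most in *Prdx3*, where they rest on 32 and 24 reads.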

How the data were processed

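RNA was measured with the QuantSeq 3′ kit in 15 samples, grouped as labelled. Per the study's methods and the submitters' processing notes, the authors trimmed adaptors and poly(A) tails, used sense reads, mapped them to GRCm38.p6 with STAR 2.7.8a, assigned unique alignments to genes with featureCounts 1.6.0, removed genes of low CPM and tested the genes with their own model. Each sample's values were deposited by the authors as log2 CPM, made with a prior of about 2 reads and scaled libraries in each of the 2 tables; their fold change, p-value and F columns were not used. For low genes the prior shrinks fold changes. Whole reads were recovered from the spacing of the values to within 0.1 read, and PCR copies cannot be told apart in them, so that floors of 3 reads cover counting error only. No library duplicated another.

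Genes were tested on the deposited log2 values with limma 3.58.1 in R 4.3.3 (variance trend, two-sided, p-values adjusted by Benjamini-Hochberg over the whole table, n = 4 and 4 or 4 and 3), after a test on simulated data. "Over 2-fold" means past that test at 0.05 with a log2 fold change beyond 1 in size. Other fits used a robust prior, no trend, a replicate block, a threshold of 0.01, prior counts of 0.5 and 5, a mean of at least 1 log2 CPM, other scalings, limma's voom on the recovered reads and each sample left out. Members and lists were chosen with earlier results of these data known. Values per sample are given for members over 2-fold in either comparison and for the 4 smallest adjusted p in each, and for others chosen after their values were seen. Wider lists are named for up to 6 genes per direction that were over 2-fold without overlap and whose higher group averaged 2 log2 CPM or more, and other listed genes were named after their values were seen. Positions come from GENCODE vM21 (GRCm38), which held 11676 of 11677 and 11298 of 11299 gene IDs. Sequence shared between genes was looked for in 50-nt stretches from the final 300 nt of each transcript. Python 3.11.15, pandas 2.3.3, numpy 2.4.6, scipy 1.17.1 and matplotlib 3.10.9 were used.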

Additional observations from a re-analysis of the deposited data

Results flagged for a closer look

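In 12 of the 108 groups of 4 samples examined, 1 sample lay further from the others than Dixon's 95% critical value allows, where chance gives about 1 in 20. Of the 12, 6 are samples numbered 2 of the cultures. These were *Sod2* in 2D replicate 2 at 4.24 log2 CPM, *Sod2* in 3D replicate 2 at 4.78, *Prdx3* in 3D replicate 2 at 1.68, *Txn1* in 3D replicate 2 at 8.51, *Mgst3* in 3D replicate 2 at 1.06 with 15 reads, and *Selenop* in 3D replicate 2 at 4.40, each the lowest of its group.

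In other cultures *Sod3* was lowest in 3D replicate 1 at 3.39 log2 CPM and *Gclm* was highest in 3D replicate 3 at 6.45. In the internal samples *Gsr* was highest in replicate 3 at 4.13 with 75 reads, *Gstm1* highest in replicate 2 at 9.87, *Prdx3* lowest in replicate 4 at 1.24 with 25 reads, and *Sod2* lowest in replicate 4 at 3.76, where the other internal samples lay between 3.99 and 4.01. Groups of 3 samples were not examined.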

How the results depend on the processing

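Of the 22 values of members that passed the threshold, 10 passed it in all alternatives run and 0 changed sign, while 17 of all 72 member values changed sign in some alternative, none of them past the threshold. In 3D against 2D, 10 members changed, 7 with no variance trend, 8 with median centring and 4 at an adjusted p of 0.01. Leaving out each sample gave 5 to 13, with 5 without 3D replicate 3 and 6 without 3D replicate 4, and for members over 2-fold 3 to 6. For the wider lists, 12 genes changed in 3D, 5 at an adjusted p of 0.01 and 7 to 18 with a sample left out. Between the regions 12 members changed, 7 with no variance trend and 10 to 13 with a sample left out, and 4 to 6 were over 2-fold. There 18 genes of the wider lists changed, 7 with no variance trend, 11 at an adjusted p of 0.01 and 12 to 17 with a sample left out. The cause of these differences was not tested. Scaling to total reads moved the median log2 fold change of all genes between the regions from 0.04 to 0.15.

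With the replicate block, 10 members changed in 3D (9 of them as without it) and 8 between the regions, 4 were over 2-fold in each, and 19 genes of the wider lists changed in 3D. Between the regions *Gclm* (adjusted p = 0.0592 by limma), *Txnrd1* (0.076), *Prdx2* (0.169) and *Nfe2l2* (0.0982) did not pass with the block, and internal replicate 4, which has no partner, adds nothing to that fit. In 3D *Gclc* did not pass with it (0.0555) and *Gsr* did (0.0145). The labels do not say that the numbers pair the samples. Deviations of each gene from its group mean were correlated between samples, over genes averaging at least 3 log2 CPM. For samples with the same number these correlations ran from -0.023 to 0.621 over 4 pairs in the cultures. The highest was for the samples numbered 2, and not every culture sample's deviations correlated best with those of its own number. They ran from -0.131 to -0.058 over 3 pairs in the regions.

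Depth limits *Sod3* and *Txnip* in 2D and *Cygb* outside, where some samples had 0 to 2 reads.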
